A study of Homo sapiens with 12 samples.

Results

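The heat shock chaperones described here were 10 human genes, HSPA1A, HSPA1B, HSPA8, HSPH1, DNAJB1, BAG3, HSPB1, HSP90AA1, HSPD1 and HSPE1. They were chosen by name, with earlier results of these data known, as the best known chaperones of the cytosol and of the mitochondrial matrix. They were read by 17 of the 48102 probes of an Illumina bead array, and all 10 were among the 13514 genes tested, out of 20046 genes with a named probe. The arrays measured total RNA of PC9, a lung adenocarcinoma line that carries an activating EGFR mutation and depends on EGFR signalling. Gefitinib inhibits the EGFR kinase. MRC-5 are human lung fibroblasts, which shared medium with the PC9 cells through an insert with pores of 1 µm.

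There were 4 groups of 3 arrays, all of 1 PC9 line without a genetic change: PC9 alone with DMSO (the vehicle), PC9 alone with 0.5 µM gefitinib, PC9 co-cultured with MRC-5, and PC9 co-cultured with MRC-5 with 0.5 µM gefitinib. Gefitinib was given after 24 h and the co-culture lasted 48 h. The labels name RPMI 1640 as the growth medium and EMEM as the medium for co-culture, both with 10% FCS, and describe a wash before the co-culture. Medium, washing and MRC-5 cells therefore cannot be told apart in any comparison of co-culture with PC9 alone. The titles of all 6 co-culture samples end in WH, which the labels do not explain, and the labels do not name a vehicle for the co-culture without gefitinib.

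Chaperones bind proteins that are not yet folded or have lost their fold. In the cytosol, HSP40 proteins such as DNAJB1 bring clients to HSP70 (HSPA1A, HSPA1B, HSPA8) and speed its use of ATP, HSPH1 and BAG3 exchange the nucleotide so that the client is let go, HSP90 acts on kinases and receptors late in their folding, and small heat shock proteins such as HSPB1 hold clients without using ATP. In the mitochondrial matrix HSPD1 (HSP60) forms a barrel that HSPE1 (HSP10) closes. Many of these genes are switched on by the transcription factor HSF1 through heat shock elements, which are inverted repeats of the letters NGAAN. Mutant EGFR is a known client of HSP90.

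Between 20917 and 22820 probes per array had a detection p-value under 0.05, and the mean signal per array was 371 to 444 intensity units. The number of arrays and the signal over background, not a read depth, limit the precision. All 8 epithelial markers (EPCAM, KRT7, KRT8, KRT18, KRT19, CDH1, CLDN4, CLDN7) were detected on all 12 arrays. Of 12 fibroblast markers, COL1A1 and TWIST2 were detected on every array, at no more than 187 and 156 intensity units, and COL3A1, LUM, PDGFRB and THY1 on 0 of 12. Only 4 of the 12 fibroblast markers passed the filter (COL1A1, COL1A2, DCN and TWIST2). Their summed normalized signal, which includes an offset of 16 added to each value, was 141 to 162 with DMSO and 191 to 200 with gefitinib. It was 149 to 201 in co-culture and 186 to 222 in co-culture with gefitinib, against at least 30030 for the 8 epithelial markers. In such bulk samples fewer cells of a kind and less RNA per cell cannot be told apart.

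Gefitinib alone moved 6 of the 10 chaperones, in both directions. Relative to DMSO, HSPD1, HSPH1, DNAJB1 and HSP90AA1 fell and HSPB1 and HSPA1A rose, whereas HSPA1B, HSPA8, BAG3 and HSPE1 did not pass the test. The largest change was that of HSPD1, to 0.622 of its DMSO level, and the largest rise that of HSPB1, to 1.35 times. Calls rest on limma with a Benjamini-Hochberg adjusted p under 0.05 over all 13514 genes, and a difference of 1 log2 unit is a factor of 2. The 6 chaperones called, 2 higher and 4 lower, stand beside 40.8% of all genes called in this comparison, of which 21.1% of the tested genes were higher and 19.7% lower. Their median log2 difference was -0.23, against 0.003 for all genes tested. The 3 gefitinib and 3 DMSO arrays did not overlap for 8 of the 10 chaperones (2 higher, 6 lower), and for 50% of all genes. With median scaling in place of quantile normalization 0 of the chaperones were called higher and 7 lower, beside 36.9% of all genes called. The higher genes were then 33.0% of all genes called in place of 51.6%. The size of the HSPD1 difference was larger than that of 79.9% of all genes, whereas those of the others exceeded 20.8% (HSPA1B) to 63.1% (HSPB1) of genes.

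**Figure D1:**
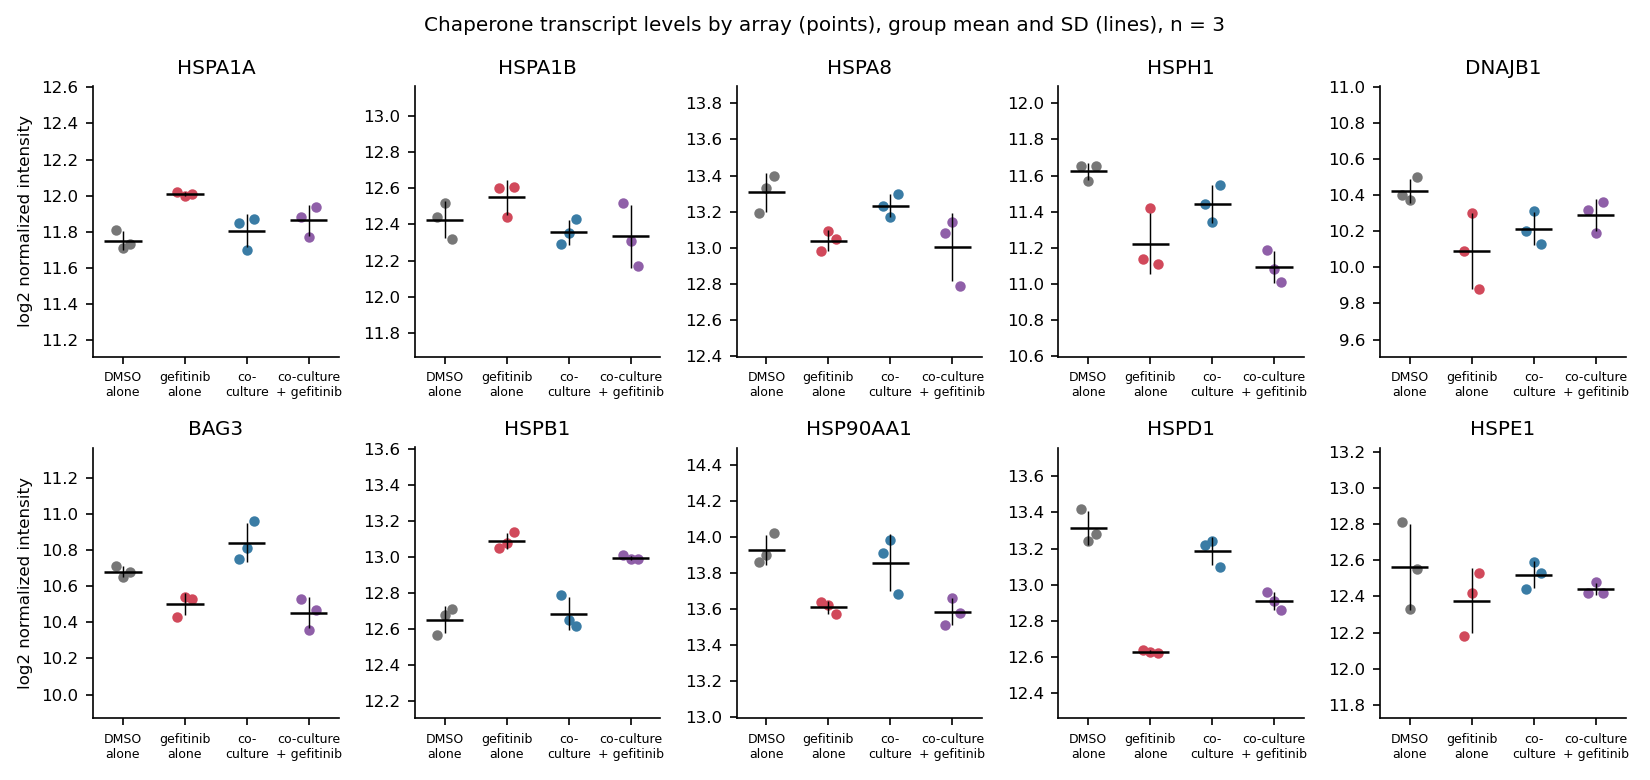
Normalized log2 intensity of each of the 10 chaperones by its brightest probe on each of the 12 arrays (points) with the mean (horizontal line) and SD (vertical line) of each group of 3; each panel has its own axis, which does not start at 0. HSPD1 lies at 13.24 to 13.42 with DMSO, at 12.62 to 12.64 with gefitinib alone and at 12.86 to 12.96 with gefitinib in co-culture.

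HSPD1 is the subunit of the mitochondrial chaperonin barrel. Its signal before normalization was 11781, 8926 and 10049 intensity units on the 3 DMSO arrays, 6018, 5889 and 5965 with gefitinib, 8709, 9553 and 9694 in co-culture, and 8213, 8646 and 8251 in co-culture with gefitinib. After background correction and quantile normalization the log2 values were 13.42, 13.24 and 13.28 with DMSO, 12.64, 12.63 and 12.62 with gefitinib, 13.22, 13.24 and 13.10 in co-culture, and 12.96, 12.91 and 12.86 in co-culture with gefitinib. The 3 arrays with gefitinib alone were the lowest of the 12 and lay close together, the co-culture arrays with gefitinib came next, and the arrays of both groups without gefitinib overlapped each other. Gefitinib alone lowered HSPD1 by 0.69 ± 0.08 log2 units (SE, n = 3 per group, 95% confidence interval -0.87 to -0.50, limma adjusted p 5.2e-05). This call held when any of the 12 arrays was left out, with values from -0.72 to -0.63.

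HSPE1, the lid of that barrel, is transcribed from the same stretch of chromosome 2 in the other direction. Only 104 bases lie between the HSPE1 start and the nearer of 2 RefSeq starts of HSPD1 (GRCh38.p14), and they are shown because these neighbours read away from each other across that stretch. It is given on the forward strand, that of HSPE1, at chr2:197500275-197500378.
HSPD1-HSPE1: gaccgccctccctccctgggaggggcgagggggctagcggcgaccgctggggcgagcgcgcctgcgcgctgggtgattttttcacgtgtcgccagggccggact
HSPE1 levels were 12.81, 12.33 and 12.55 with DMSO, 12.18, 12.42 and 12.53 with gefitinib, 12.44, 12.59 and 12.53 in co-culture, and 12.42, 12.48 and 12.42 in co-culture with gefitinib. All 4 groups overlapped, and the DMSO arrays alone spanned most of the range. The log2 difference with gefitinib alone was -0.19 ± 0.13 (SE, limma adjusted p 0.274, 95% interval -0.47 to 0.09), and a difference between its response and that of HSPD1 was not tested. HSPE1 was called lower under 2 of the 10 alternative processings, median scaling (-0.48) and scaling to the median of the passing probes, with an adjusted p of 0.041 to 0.846 over the 10. Its value was -0.07 without DMSO replicate 1 and -0.30 without DMSO replicate 2, with neither called.

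The cytosolic HSP70 genes did not move as a group. HSPA1A and HSPA1B encode nearly the same stress-inducible HSP70 and lie side by side on chromosome 6, and HSPA8 encodes the HSP70 that cells make without stress. Their upstream sequences are shown because the heat-inducible pair shares almost all of its promoter. The 250 bases before the RefSeq start of HSPA1A (chr6:31815293-31815542, forward strand) and of HSPA1B (chr6:31827488-31827737, forward strand) were identical at 235 of 251 aligned positions (93.6%), and the 250 bases before that of HSPA8 (chr11:123062137-123062386, reverse strand) hold a longer element 2 times. Capitals mark every match, on either strand, to GAANNTTC, to TTCNNGAA, or to the longer element in which GAANNTTC is followed by NN and GAA.
HSPA1A: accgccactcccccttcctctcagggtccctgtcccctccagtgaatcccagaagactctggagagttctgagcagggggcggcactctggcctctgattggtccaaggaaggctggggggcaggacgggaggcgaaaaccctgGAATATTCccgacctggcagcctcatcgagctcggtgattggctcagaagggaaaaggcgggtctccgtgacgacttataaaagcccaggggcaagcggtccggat
HSPA1B: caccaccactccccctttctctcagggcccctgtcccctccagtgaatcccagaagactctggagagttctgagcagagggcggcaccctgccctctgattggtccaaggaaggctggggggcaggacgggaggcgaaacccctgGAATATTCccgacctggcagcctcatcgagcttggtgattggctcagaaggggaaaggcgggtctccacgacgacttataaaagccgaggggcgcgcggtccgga
HSPA8: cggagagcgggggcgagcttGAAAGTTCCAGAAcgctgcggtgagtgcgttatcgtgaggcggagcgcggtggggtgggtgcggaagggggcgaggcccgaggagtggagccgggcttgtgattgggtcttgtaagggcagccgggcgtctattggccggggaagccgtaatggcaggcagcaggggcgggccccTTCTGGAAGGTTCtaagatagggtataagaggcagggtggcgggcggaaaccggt

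HSPA1A log2 levels were 11.81, 11.71 and 11.73 with DMSO, 12.02, 12.00 and 12.01 with gefitinib, 11.85, 11.70 and 11.87 in co-culture, and 11.88, 11.77 and 11.94 in co-culture with gefitinib. The gefitinib arrays lay above every other array, and the 3 other groups overlapped. HSPA1A rose with gefitinib alone by 0.26 ± 0.09 (SE, n = 3 per group, limma adjusted p 0.0304). This rise passed under 6 of 10 alternative processings, with limma adjusted p from 0.0163 to 0.863 over the 10. With each array scaled to its median in place of quantile normalization the value was -0.04 (adjusted p 0.863). Leaving out any of the 6 arrays compared except DMSO replicate 1 gave an adjusted p of 0.0591 to 0.0799. Before normalization the signals were 3202 to 3948 intensity units with DMSO and 3754 to 3978 with gefitinib, which overlap.

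HSPA1B differed by 0.12 ± 0.11 (adjusted p 0.421) with gefitinib alone, its levels being 12.32 to 12.52 with DMSO and 12.44 to 12.61 with gefitinib. Since the transcripts of HSPA1A and HSPA1B are nearly identical, each probe may read both, which was not checked because the probe sequences were not used here.

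HSPA8 was among the brightest chaperones, at 13.19, 13.33 and 13.40 with DMSO, 12.98, 13.09 and 13.05 with gefitinib, 13.23, 13.17 and 13.30 in co-culture, and 13.08, 13.14 and 12.79 in co-culture with gefitinib. Every array with gefitinib was below every array without it. The log2 difference was -0.27 ± 0.11 with gefitinib alone (limma adjusted p 0.067) and -0.23 ± 0.11 in co-culture (adjusted p 0.16), so neither passed the test by the brightest probe. The other HSPA8 probe fell by 0.42 ± 0.12 with gefitinib alone (adjusted p 0.0172 over all 25510 probes). HSPA8 passed with gefitinib alone under 6 of 10 alternative processings, with adjusted p from 0.00676 to 0.0979 over the 10, and also without co-culture with gefitinib replicate 3 (0.0354).

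HSPH1 is the HSP110 that exchanges nucleotide on HSP70. Its log2 levels were 11.65, 11.57 and 11.65 with DMSO, 11.14, 11.42 and 11.11 with gefitinib, 11.44, 11.34 and 11.55 in co-culture, and 11.19, 11.08 and 11.01 in co-culture with gefitinib. Within PC9 alone and within co-culture, every array with gefitinib was below every array without it. HSPH1 fell by 0.40 ± 0.11 with gefitinib alone (SE, limma adjusted p 0.00931), and this call held under all 10 alternative processings and with any array left out.

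Among the other cytosolic chaperones HSPB1 stood apart in direction. HSPB1 (HSP27), the small heat shock protein that binds unfolding proteins and actin filaments, was at 12.57, 12.68 and 12.71 with DMSO, 13.05, 13.08 and 13.14 with gefitinib, 12.79, 12.65 and 12.62 in co-culture, and 13.01, 12.99 and 12.99 in co-culture with gefitinib. All 6 arrays with gefitinib exceeded all 6 without it, the mirror image of HSPA8. Gefitinib alone raised HSPB1 by 0.44 ± 0.08 (SE, limma adjusted p 0.00135), which held with any array left out, and gave 0.18 (adjusted p 0.311) with median scaling. The 250 bases before its RefSeq start (chr7:76302423-76302672, forward strand) are shown as those of the chaperone that rose most, with the single match to GAANNTTC in capitals.
HSPB1: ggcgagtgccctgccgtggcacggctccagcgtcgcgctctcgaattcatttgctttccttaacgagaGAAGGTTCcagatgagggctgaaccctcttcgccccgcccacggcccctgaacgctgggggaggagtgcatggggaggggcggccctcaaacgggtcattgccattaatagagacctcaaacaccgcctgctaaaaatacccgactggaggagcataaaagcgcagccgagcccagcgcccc

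DNAJB1, the HSP40 that heat induces, was at 10.40, 10.37 and 10.50 with DMSO, 10.09, 10.30 and 9.88 with gefitinib, 10.20, 10.31 and 10.13 in co-culture, and 10.32, 10.19 and 10.36 in co-culture with gefitinib. It was highest with DMSO, and the 3 other groups overlapped. DNAJB1 fell by 0.33 ± 0.11 with gefitinib alone (SE, limma adjusted p 0.0341), and the adjusted p was 0.0519 to 0.13 when any of the 6 arrays compared except gefitinib replicate 2 was left out.

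BAG3, which links HSP70 to small heat shock proteins and to autophagy, was at 10.71, 10.65 and 10.68 with DMSO, 10.43, 10.54 and 10.53 with gefitinib, 10.75, 10.81 and 10.96 in co-culture, and 10.53, 10.36 and 10.47 in co-culture with gefitinib. Here too both groups with gefitinib were below both without it. With gefitinib alone the log2 difference was -0.18 ± 0.09 (limma adjusted p 0.134), short of the threshold.

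HSP90AA1, the inducible cytosolic HSP90, had the highest member signal, 16671 intensity units, below the brightest probe of any array, which reached at least 19694. By its brightest probe it was at 13.86, 13.90 and 14.02 with DMSO, 13.64, 13.62 and 13.57 with gefitinib, 13.91, 13.98 and 13.68 in co-culture, and 13.51, 13.66 and 13.58 in co-culture with gefitinib. HSP90AA1 fell by 0.31 ± 0.10 with gefitinib alone by this probe (SE, limma adjusted p 0.0232), but its probes disagree, as described with the probes, and the mean of its probes gave -0.08 (adjusted p 0.468). Without DMSO replicate 3 or without gefitinib replicate 2 or 3 its adjusted p was at least 0.0518.

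**Figure D2:**
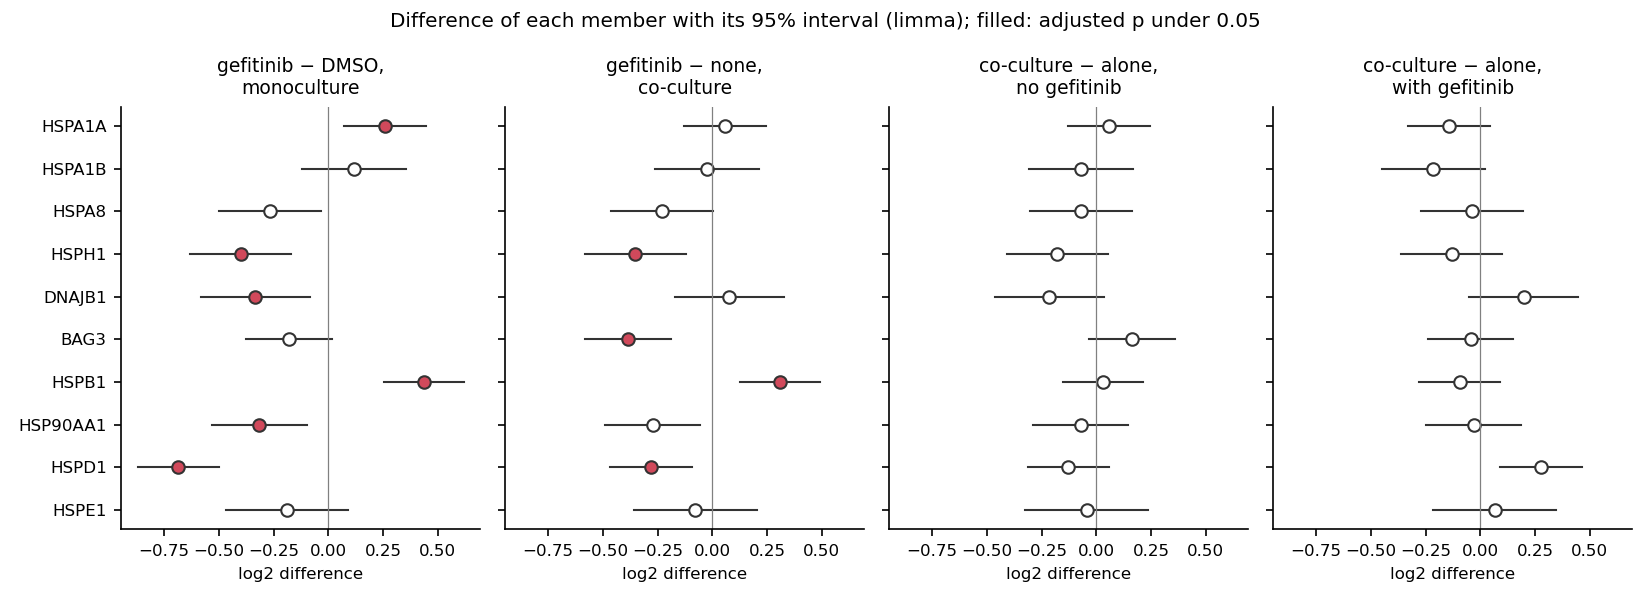
Log2 difference of each chaperone in 4 comparisons (gefitinib against none in PC9 alone and in co-culture, and co-culture against PC9 alone without and with gefitinib), with 95% confidence intervals from limma (4 groups of 3 arrays); filled points have an adjusted p under 0.05. Filled points appear with gefitinib alone (6 chaperones) and with gefitinib in co-culture (4), and in neither comparison of co-culture with PC9 alone.

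In co-culture, gefitinib changed 4 of the 10 chaperones, with HSPH1, BAG3 and HSPD1 lower and HSPB1 higher, beside 20.1% of all genes called (10.9% higher and 9.17% lower). BAG3 changed most, falling by 0.39 ± 0.09 log2 units to 0.765 of its level in co-culture without gefitinib (SE, n = 3 per group, limma adjusted p 0.00958). HSPH1 fell by 0.35 ± 0.11 (adjusted p 0.0348) and HSPD1 fell by 0.28 ± 0.08 (adjusted p 0.0365). HSPB1 rose by 0.31 ± 0.08 (adjusted p 0.0216). HSP90AA1 was at -0.27 ± 0.10 (adjusted p 0.0744), and HSPA1A, HSPA1B, DNAJB1 and HSPE1 lay between -0.08 and 0.08. The median of the 10 was -0.16, against -0.01 for all genes. With median scaling 1 chaperone was called, HSPB1, beside 17.2% of all genes. The higher genes were then 83.7% of all genes called in place of 54.3%.

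The arrays with and without gefitinib in co-culture did not overlap for 6 chaperones (1 higher, 5 lower), and for 37.3% of all genes. BAG3 kept its call with any array left out, but the other calls each depended on single arrays. Leaving out 1 co-culture array gave an adjusted p of 0.0785 to 0.115 for HSPH1 (replicates 1 and 3 without and 2 and 3 with gefitinib), 0.0593 to 0.107 for HSPD1 (each array except replicate 3 without gefitinib) and 0.0527 to 0.0748 for HSPB1 (replicates 2 and 3 without and 1 and 2 with gefitinib). HSP90AA1 passed without replicate 3 of co-culture without gefitinib (0.0262). The count of called chaperones was 1 without replicate 2 of co-culture with gefitinib, beside 16.2% of all genes.

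The gefitinib effects in PC9 alone and in co-culture share no arrays. The sign was the same for 8 of the 10 chaperones, and the effect was smaller in co-culture for 9 of 10, BAG3 being the exception. Among all genes the sign was the same for 73.3%, and the effect was smaller in co-culture for 68.5%, so these counts describe the chaperones without setting them apart.

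The difference between the gefitinib effects, tested as an interaction, passed the threshold for 0 of the 10 chaperones by limma, beside 7.27% of all genes. At an unadjusted p under 0.05 there were 2, HSPD1 and DNAJB1, beside 3050 of all 13514 genes. For HSPD1 the effect was 0.41 ± 0.12 log2 units less negative in co-culture (SE, limma adjusted p 0.0656, 95% interval 0.14 to 0.67), with an adjusted p of 0.0184 to 0.0979 over 9 alternative processings, of which 6 passed. For DNAJB1 the difference was 0.41 ± 0.16 (adjusted p 0.151), from -0.33 in PC9 alone to 0.08 in co-culture. The other 8 differences had adjusted p from 0.358 to 0.926, and their intervals reach as far as -0.48 for BAG3 and 0.51 for HSPE1, so effects of that size in either direction are not shown to be absent.

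Co-culture itself changed 0 of the 10 chaperones without gefitinib, by limma, with adjusted p from 0.499 to 0.937 and 0 at an unadjusted p under 0.05. In this comparison 0.355% of all genes, 48 genes, were called, and 1599 of 13514 had an unadjusted p under 0.05. The largest log2 differences were -0.21 ± 0.11 for DNAJB1, -0.18 ± 0.11 for HSPH1 and 0.16 ± 0.09 for BAG3, the 3 chaperones whose groups did not overlap, as was the case for 17.5% of all genes. The 95% intervals of the 10 reached down to -0.46 (DNAJB1) and up to 0.36 (BAG3), so changes of that size are not shown to be absent.

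With gefitinib in both arms, co-culture again changed 0 of the 10 chaperones by limma, beside 13.5% of all genes. Only 1 chaperone, HSPD1, had an unadjusted p under 0.05, beside 3629 of all 13514 genes. HSPD1 was 0.28 ± 0.08 log2 units higher in co-culture with gefitinib than with gefitinib alone (SE, 95% interval 0.09 to 0.46, adjusted p 0.052). Over the 10 alternative processings its limma adjusted p was 0.0148 to 0.106, with values of 0.26 to 0.55, and 6 of them passed. Leaving out the DMSO array of replicate 1, which is in neither group of this comparison but takes part in the normalization, the filter and the estimate of the spread, gave 0.28 with an adjusted p of 0.0455. The groups did not overlap for 3 chaperones, HSPD1 (higher), HSPA1A and HSPB1 (lower), against 31.7% of all genes. This comparison shares the arrays with gefitinib alone with the monoculture comparison, in which HSPD1 was at -0.69.

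The order of the HSPD1 levels was DMSO (13.32 ± 0.10, SD, n = 3), co-culture (13.19 ± 0.07), co-culture with gefitinib (12.91 ± 0.05) and gefitinib alone (12.63 ± 0.01). The first pair overlap, and the other neighbours in that order do not. HSPB1 ran in the opposite order, with 12.66 ± 0.08 for DMSO, 12.69 ± 0.09 for co-culture, 12.995 ± 0.012 for co-culture with gefitinib and 13.09 ± 0.05 for gefitinib alone. Across the 12 arrays the Pearson correlation of HSPB1 with HSPD1 was -0.93, that of HSPA8 with HSPH1 0.84 and that of HSPA1A with HSPA1B 0.34. These are descriptions over arrays that fall into 4 groups and share their normalization.

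For 4 of the chaperones several probes were present, and they did not always give the same picture. Probe values were fitted in a separate limma model over all 25510 probes that passed the filter. Both the number of tests and the standard errors therefore differ from those of the genes (for HSPA1A 0.094 against 0.085). In that fit HSPA1A (adjusted p 0.0586) and DNAJB1 (0.0553) missed the threshold with gefitinib alone, and HSPH1 (0.0638) and HSPD1 (0.0753) missed it with gefitinib in co-culture. Of the 17 probes, 16 were detected on all 12 arrays and 1, ILMN_1774410 for HSPD1, on 3.

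With gefitinib alone, 3 of the 4 HSPD1 probes were lower, with values of -0.69 ± 0.09 (ILMN_2381397), -0.52 ± 0.14 (ILMN_1766713) and -1.57 ± 0.19 (ILMN_1784367), with limma adjusted p of 0.000163, 0.0164 and 7.71e-05. The fourth, ILMN_1774410, annotated to another transcript, was close to background at 81.4 to 110 intensity units and gave -0.10 ± 0.20. The dim probe ILMN_1784367 had signals of 270, 238 and 287 with DMSO, 142, 130 and 157 with gefitinib, 177, 174 and 240 in co-culture, and 166, 187 and 213 in co-culture with gefitinib. Its gefitinib effect differed between PC9 alone and co-culture by 1.22 ± 0.27 (SE, adjusted p 0.0369), which the other 2 well detected HSPD1 probes did not pass (0.127 and 0.362).

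The 2 bright HSP90AA1 probes are annotated to different transcripts and had values of opposite sign with gefitinib alone, of which only the fall passed. ILMN_1691097, which stands for the gene above, fell by 0.31 ± 0.11 (adjusted p 0.0418), from 14511 to 16671 intensity units with DMSO to 11327 to 12285 with gefitinib. ILMN_2373515 gave 0.20 ± 0.11 (adjusted p 0.24), with 12652 to 13219 units for DMSO and 13419 to 14497 for gefitinib. The dimmer ILMN_1687546, annotated to the same transcript as ILMN_1691097, gave -0.12 ± 0.10 (limma adjusted p 0.41). Leaving out co-culture replicate 2 made ILMN_2373515 the brightest probe and turned the HSP90AA1 value to 0.20 (adjusted p 0.154). The second HSPE1 probe gave 0.10 ± 0.25.

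**Figure D3:**
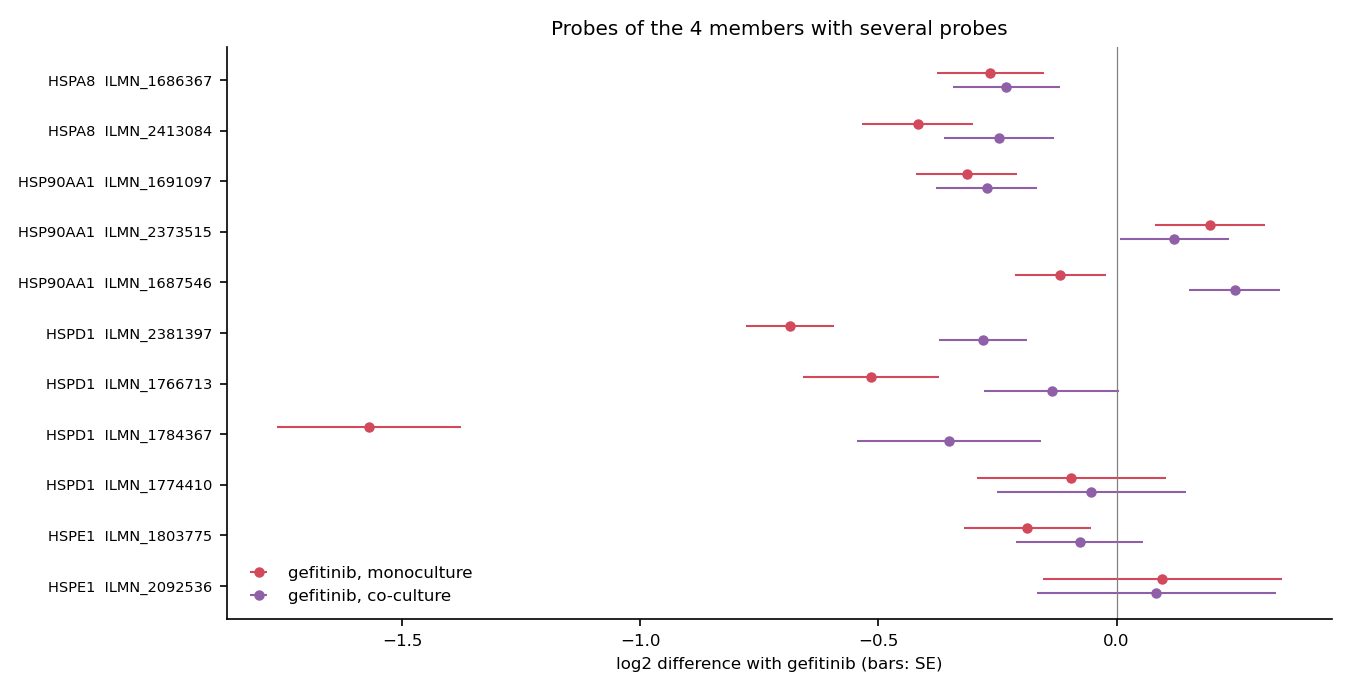
Log2 difference with gefitinib for each probe of the 4 chaperones with several probes (HSPA8, HSP90AA1, HSPD1, HSPE1), in PC9 alone and in co-culture, with standard errors from limma. The well detected HSPD1 probes lie at -0.52 to -1.57 in PC9 alone, whereas the bright HSP90AA1 probes lie on opposite sides of 0 (-0.31 and 0.20).

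Beyond the 10 members, 107 further genes of the chaperone system were listed, of which 96 were tested. With gefitinib alone 15 rose, 36 fell and 45 did not pass, so 53.1% were called against 40.8% of all genes, with a median of -0.24. In co-culture, 7 rose and 7 fell (14.6%, against 20.1% of all genes), and co-culture without gefitinib moved 0 of 96. The lists were drawn up with earlier results of these data known, and the counts describe them without a test of the lists.

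The cytosolic chaperonin CCT, which folds actin and tubulin, and prefoldin, which hands it clients, had 10 of 14 genes lower and 0 higher with gefitinib alone (median -0.53). Of all genes 19.7% were lower and 21.1% higher in that comparison. VBP1 fell by 0.80 ± 0.10 (limma adjusted p 3.8e-05), CCT4 fell by 0.72 ± 0.09 and CCT2 fell by 0.68 ± 0.12. In co-culture 3 of the 14 were lower, beside 9.17% of all genes. Among them CCT4 fell by 0.50 ± 0.09 and CCT5 fell by 0.30 ± 0.09.

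With gefitinib alone HSP90 and its cochaperones had 7 of 14 genes lower and 1 higher, beside 19.7% of all genes lower and 21.1% higher. CHORDC1 fell by 1.07 ± 0.12 with gefitinib alone and PTGES3 (p23) fell by 0.99 ± 0.13, whereas FKBP4, an immunophilin of steroid receptor complexes, fell by 0.67 ± 0.09. In co-culture 1 of the 14 passed, FKBP4, which fell by 0.35 ± 0.09, beside 20.1% of all genes called. Of the other HSP70 and HSP110 genes 4 of 8 were lower and 1 higher with gefitinib alone, beside 19.7% and 21.1% of all genes. HSPA4L, a relative of HSPH1, fell by 1.01 ± 0.17.

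Of 13 other mitochondrial chaperones and proteases 6 were lower and 1 higher with gefitinib alone, beside 19.7% and 21.1% of all genes. TRAP1, the mitochondrial HSP90, fell by 0.65 ± 0.08, and GRPEL1 and GRPEL2, which exchange nucleotide on mitochondrial HSP70, fell by 0.79 ± 0.13 and by 0.83 ± 0.12, values that stand beside the fall of HSPD1.

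Some families held genes that rose. Like HSPB1, the small heat shock protein HSPB8, a partner of BAG3, rose by 2.79 ± 0.37 with gefitinib alone (limma adjusted p 8.94e-05) and by 1.65 ± 0.37 in co-culture (adjusted p 0.00824), with group means from 5.42 with DMSO to 8.21 with gefitinib. CRYAB was not detected on any of the 3 DMSO arrays and was detected on all 3 with gefitinib alone, where it was at least 2.91-fold higher. It passed the filter on dim probes through that group, so its place among the genes that rose is a description and its p is not given. HSPB6, the remaining tested gene on the list of other small heat shock proteins, did not pass with gefitinib alone. The HSP40 gene DNAJB2 rose by 1.56 ± 0.11 with gefitinib alone and by 1.12 ± 0.11 in co-culture. Of the 15 tested genes on the list of other HSP40, 3 rose and 3 fell with gefitinib alone (median -0.19, 40.8% of all genes called). DNAJC9 was among those that fell, by 0.905 ± 0.078. BAG1, detected on 1 of 3 DMSO arrays and on all 3 with gefitinib, was also called higher. The size of its change is not given because the DMSO level was mostly not above background. Of the 6 listed nucleotide exchange factors of HSP70, 2 were called higher and 1 lower with gefitinib alone (median -0.19). Beside them stand 21.1% of all genes higher and 19.7% lower. The lower one was BAG2, which fell by 0.76 ± 0.12. Among 14 ER chaperones 3 rose and 2 fell with gefitinib alone, beside 40.8% of all genes called, so this list is not set apart. CALR was 0.78 ± 0.10 higher, DNAJB9 1.12 ± 0.15 higher and PDIA6 0.63 ± 0.13 lower.

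Of the 3 tested genes on the list of heat shock factors 1 fell, 1 rose and 1 did not pass with gefitinib alone. Beside them stand 40.8% of all genes called. HSF1, the factor that drives the heat-inducible chaperones, fell by 0.60 ± 0.14 with gefitinib alone (adjusted p 0.0039), from a mean of 7.17 to 6.57, and stood at 6.89 in co-culture without gefitinib and 6.81 with it. HSF4 rose by 0.85 ± 0.24 with gefitinib alone (adjusted p 0.0128) and by 0.83 ± 0.24 in co-culture (adjusted p 0.0283), where it was detected on 1 of 3 arrays without gefitinib. Of the other listed heat-inducible genes 2 of 6 fell and 1 rose with gefitinib alone, beside 19.7% of all genes lower and 21.1% higher. IER5, an HSF1 target, fell by 1.25 ± 0.12, and SQSTM1, an autophagy receptor, rose by 0.51 ± 0.12.

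**Figure D4:**
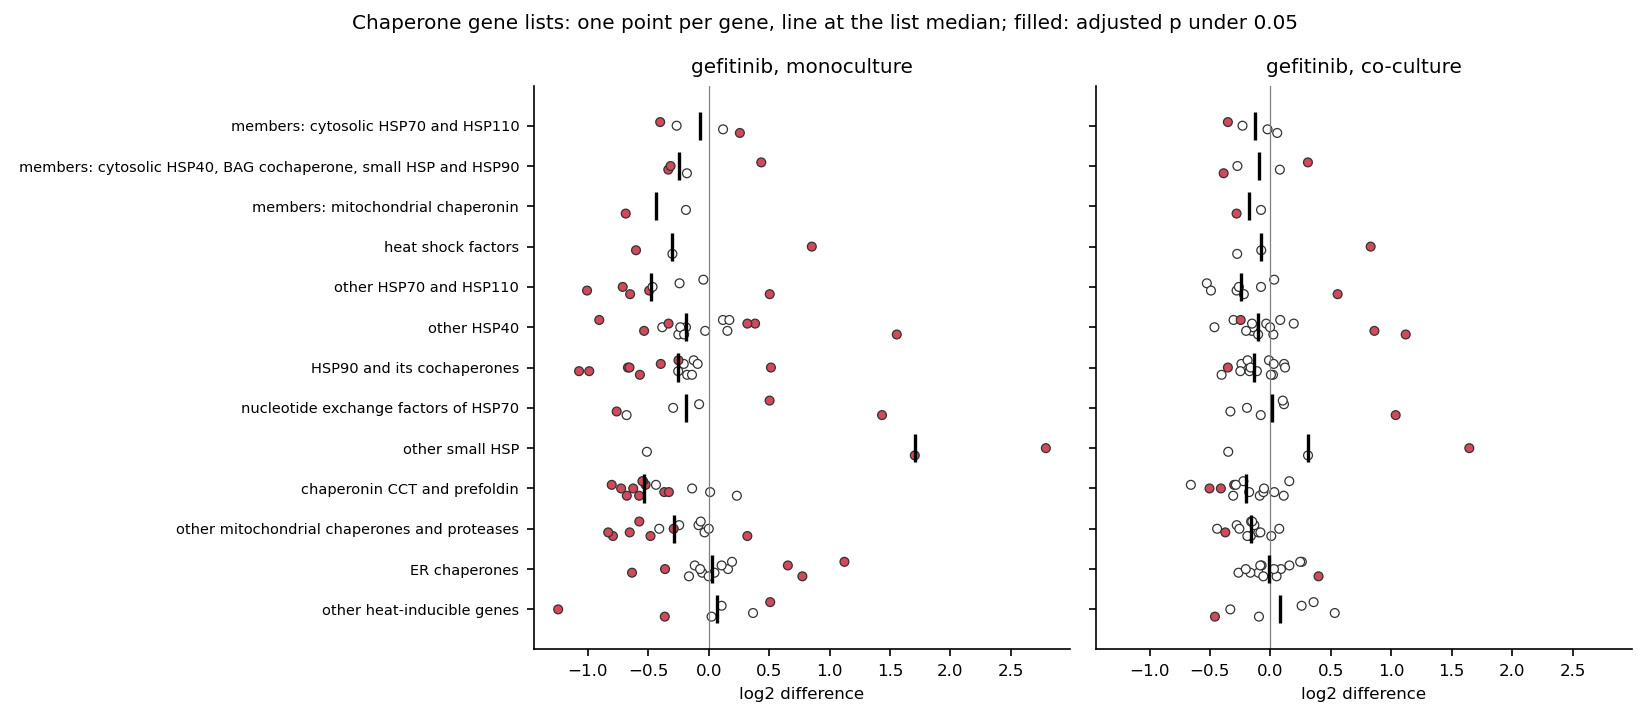
Log2 difference with gefitinib of each gene (points) in each list of chaperone genes, in PC9 alone and in co-culture, with the median of the list (line); filled points have a limma adjusted p under 0.05. The list of CCT and prefoldin has 10 of 14 genes filled and lower in PC9 alone and 3 in co-culture, beside 19.7% and 9.17% of all genes.

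Heat shock elements were looked for in the 250 bases before each RefSeq start (GRCh38.p14) on both strands, and all 10 chaperones had at least 1 such window. The element of 3 units, GAANNTTC followed by NN and GAA, was found for 3 of the 10 (HSPA8, HSP90AA1 and HSPD1), and for 0.557% of 27305 genes. The pair GAANNTTC, part of that element, was found for 7 of 10 and for 7.05% of genes, and TTCNNGAA for 3 of 10 and 8.12% of genes. Either pair occurred in 7 of the 10 and in 3813 of 27305 genes. No match was found in the windows of HSPH1, BAG3 and HSPE1. Elements outside these 250 bases, or with other letters, were not looked for, so none of the 3 is shown to lack an element. The HSPE1 window (chr2:197500129-197500378) stops short of the HSPD1 element at chr2:197500068-197500085. That element also lies upstream of the HSPE1 start, so the search does not show that HSPE1 lacks it. The chaperones with a pair included both that rose (HSPA1A, HSPB1) and 3 that fell (HSPD1, DNAJB1, HSP90AA1). A match is a run of letters and not a measured binding site, and a link between matches and changes with gefitinib was not tested.

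The longest elements are printed with every base in capitals, since each is a match throughout. That of HSPD1 (chr2:197500068-197500085, reverse strand) lies between its 2 annotated starts and holds 2 overlapping matches, and that of HSP90AA1 (chr14:102087120-102087132, reverse strand) lies 88 bases before the nearer of its starts. Those of HSPA8 are the capitals in its sequence above.
HSPD1: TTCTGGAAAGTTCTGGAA
HSP90AA1: TTCCGGAAGGTTC

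Outside the members, the genes whose levels over the 12 arrays ran most like the mean standardised level of the 8 cytosolic chaperones were SERPINB5 (Pearson r 0.931), MRPS18A (0.905) and ITPR3 (0.897), followed by BNIP2, ZNF318 and TXNRD2. Most like the mean of HSPD1 and HSPE1 were OGFOD1 (0.957), SKA1 (0.939) and ITPRID2 (0.935), followed by METAP2, MAP2K1 and RPRD1B. Of these MAP2K1 encodes the kinase MEK1. Its mean log2 level was 10.85 with DMSO, 10.41 with gefitinib, 10.79 in co-culture without gefitinib and 10.57 with it. This is the order of HSPD1, which SKA1, METAP2 and RPRD1B also had. All were picked for likeness to a mean that includes HSPD1, so a shared order is partly built in, and a link was not tested. Some of the 8 cytosolic chaperones run in opposite directions, such as HSPB1 with BAG3 (-0.81) and HSPA1A with HSP90AA1 (-0.76), so their changes partly cancel in the mean, which need not resemble any of them. The correlations were picked as the highest among all genes tested and have no test.

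**Figure D5:**
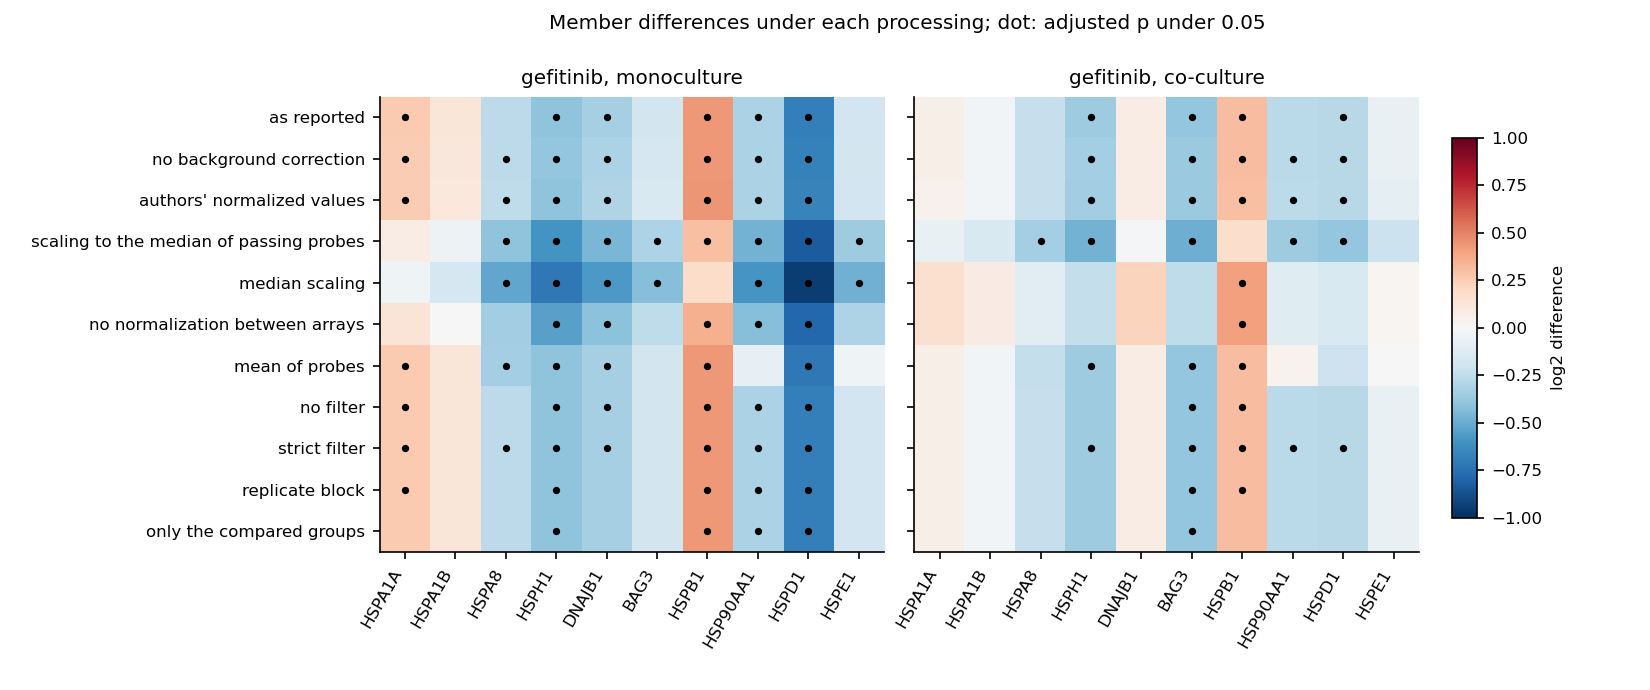
Log2 difference of each chaperone with gefitinib, in PC9 alone and in co-culture, as reported and under the 10 alternative processings; dots mark an adjusted p under 0.05. HSPD1 and HSPH1 are lower and called in PC9 alone in every setting. HSPA1A is called there in 6 of the 10 alternatives and is at -0.04 with median scaling.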

How the data were processed

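Total RNA of 12 PC9 samples was labelled with biotin and hybridised to Illumina bead arrays, per the labels' protocols. The authors deposited 1 table of intensity values that had not been normalized, with a detection p-value per probe and array, and 1 table of normalized intensity on a linear scale, which served as an alternative (method not given in the sources used here). Of 48107 probes 5 had no value. No label names the scanner or the slides. Columns were matched to samples by the sample names in the labels.

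The intensity values were background corrected with the detection p-values, quantile normalized with an offset of 16 and taken to log2 (neqc in limma 3.58.1, R 4.3.3). The filter kept the 25510 probes whose detection p was under 0.05 on 3 or more of the 12 arrays. Genes were named by the platform annotation (30113 probes with 1 gene, 8 with several, which were not named), and the brightest probe on average stood for a gene (13514 genes, 3677 of them with several probes). Levels of different genes are not compared, as probes differ in brightness. One limma model with 4 group means and 5 contrasts (residual degrees of freedom 8, prior 3.3) was tested with moderated tests and Benjamini-Hochberg adjustment at 0.05. The fitting code was tested on simulated data. The labels do not say whether replicates were separate cultures, so p-values measure the spread between these samples, which may be technical. No 2 arrays were identical.

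Same-numbered replicates of different groups did not deviate together (12 pairs, correlations -0.02 to 0.04), so the numbers were not used as pairs. Named genes were the 10 members and, from each other list and comparison, up to 4 genes with the smallest p past the threshold. The text names some of these, and for the genes most like the members it names 6 for each pattern. The members and lists were chosen with earlier results of these data known. Promoter windows came from RefSeq (GRCh38.p14) and were searched with Python 3.11.15; HSPA1A and HSPA1B were aligned with Biopython 1.88.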

Additional observations from a re-analysis of the deposited data

Results flagged for a closer look

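The effect of gefitinib differed between PC9 alone and co-culture, by the interaction in limma, for 9 of 96 listed chaperone genes (9.38%, against 7.27% of all genes) and for 1 probe of a member. The count includes CRYAB, whose value is no test, and a share this near to that of all genes does not set the list apart. In each case the effect was smaller in co-culture. The 2 settings differ in medium as well as in MRC-5 cells, and the part of either was not tested.

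The HSP90 cochaperones CHORDC1 and PTGES3 differed by 0.899 ± 0.163 (SE, limma adjusted p 0.0103) and 0.876 ± 0.186 (adjusted p 0.0182), their effects being -1.07 and -0.99 in PC9 alone and -0.17 and -0.11 in co-culture. TTC4, another HSP90 cochaperone, differed by 0.49 ± 0.12 (adjusted p 0.0271). The HSP40 gene DNAJC9, which also binds histones, differed by 0.659 ± 0.111 (adjusted p 0.00736), and the prefoldin subunit VBP1 by 0.516 ± 0.134 (adjusted p 0.0412). GRPEL2 differed by 0.748 ± 0.171 (adjusted p 0.0242), and IER5 by 0.913 ± 0.167 (adjusted p 0.0107).

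Of the genes that rose with gefitinib alone, the ER cochaperone DNAJB9 differed by -0.863 ± 0.215 (adjusted p 0.0346), its effect being 1.12 in PC9 alone and 0.26 in co-culture. CRYAB had a fitted difference of -1.394, but it was detected on 0 of 3 arrays with DMSO, 0 of 3 in co-culture and 1 of 3 in co-culture with gefitinib. It passed the filter on dim probes through the group with gefitinib alone, so this value is neither a measured size nor a test. HSPD1 probe ILMN_1784367 differed by 1.218 ± 0.274 (adjusted p 0.0369 over all probes), whereas the brighter HSPD1 probe ILMN_2381397 differed by 0.41 ± 0.13 (adjusted p 0.127).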

How the results depend on the processing

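Gefitinib alone lowered HSPD1 and HSPH1 under all 10 alternative processings and with any array left out. HSPA1A was called higher under 6 of the 10, and with median scaling it gave -0.043 (adjusted p 0.863). HSP90AA1 ranged from -0.343 to 0.199 when 1 array was left out, and was above 0 without co-culture replicate 2, when another probe became the brightest. Among the values of single chaperones 59 of 1090 had the other sign without passing the threshold in either processing, and they are counted as unchanged. With gefitinib alone 3 to 7 chaperones were called when 1 array was left out (3 without replicate 3 of either group compared; all genes 4890 to 5484), in co-culture 1 to 4 (2023 to 2706), for co-culture without gefitinib 0 (11 to 42), for co-culture with gefitinib 0 to 1 (1096 to 1757) and for the difference of effects 0 (575 to 955). The lowest counts of all genes in the last pair came without replicate 3 of co-culture with gefitinib.

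The 4 chaperones called with gefitinib in co-culture became 1 with median scaling, 1 without normalization between arrays, 2 without the filter, 2 with the replicate block and 1 in a fit of the 2 groups compared alone. The 0 called for co-culture with gefitinib became 2 with median scaling and 1 without background correction, without normalization, with the authors' normalized values, with a detection p under 0.01 or with scaling to the median of the passing probes. The 0 called for the difference of effects became 2 with median scaling and 1 without background correction, with the authors' values, with the strict filter, with the mean of probes or with scaling to passing probes. Scaling to passing probes was chosen after seeing the data. Of all genes, the settings named for gefitinib in co-culture called 12.2% to 18.3%. Those named for co-culture with gefitinib called 13.4% to 19.7%, and those named for the difference of effects 7.1% to 12.4%.

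Of all genes, the 48 called for co-culture without gefitinib became 124 without background correction, 17 with median scaling, 20 without normalization, 119 with the authors' values, 85 with the strict filter, 19 with the replicate block and 3 in a fit of both groups alone. The 983 called for the difference of effects became 1475 without background correction and 1668 with median scaling. The replicate block, whose numbers do not pair the samples, gave 5 called chaperones with gefitinib alone in place of 6, beside 39.5% of all genes.

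Scaling moved the split of higher and lower calls. With median scaling the median of all genes was -0.12 with gefitinib alone, 0.13 in co-culture, 0.19 for co-culture with gefitinib and 0.29 for the difference of effects. The share of higher genes among those called went from 51.6% to 33.0% with gefitinib alone, from 54.3% to 83.7% in co-culture, from 66.7% to 35.3% for co-culture without gefitinib, from 52.8% to 91.2% for co-culture with gefitinib and from 54.1% to 95.1% for the difference. Without normalization the median of all genes was 0.13 in co-culture, 0.13 for co-culture with gefitinib and 0.12 for the difference, and those shares were 83.9%, 87.2% and 82.9%. With scaling to passing probes the median of all genes was -0.10 in co-culture, where the share was 41.1%. In the fit of both groups alone all 3 genes called for co-culture without gefitinib were higher (100%). The cause of these moves was not tested. With 3 arrays a group and signals near background for HSPD1 probe ILMN_1774410, CRYAB and BAG1, small differences in those values cannot be resolved.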
